A study of Homo sapiens with 2 samples.

Results

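The genes examined here were 10 genes of the NRF2 antioxidant pathway and of ferritin, the iron-storage protein: NFE2L2, KEAP1, HMOX1, NQO1, GCLC, GCLM, TXNRD1, SRXN1, FTL and FTH1. They were chosen by gene name with earlier results of these data known, as were the lists of other genes below. Counts of them beside those of all genes are therefore descriptive. Each of the 10 was found once among the 25277 rows of the gene tables of both samples, with an FPKM above 1 in both. FPKM is the number of sequenced fragments scaled by transcript length and by library depth, so that levels of different genes within a sample can be set side by side. RNA was sequenced from 2 cultures of the human embryonic kidney line HEK293, in which cells carried either intact PERK (WT) or an EIF2AK3 gene targeted with CRISPR/Cas9 (PERK-KO). Both were kept for 12 h in OXPHOS medium, which lacks glucose and holds galactose and pyruvate, and both were of the same passage range. PERK-KO cells were raised from single seeded cells, so that a difference between the lines can also be one between clones, and no sample in glucose medium was analysed here. With 1 sample per genotype there was no replicate error and no test. Each value is given with the confidence limits deposited beside it, which leave out how much separate cultures would vary. Counting error alone does not set these limits. At about the same level in WT cells, the upper limit lay 1.61% above the value for FTL and 4.32% above it for FTH1.

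NRF2, encoded by NFE2L2, is a transcription factor that KEAP1 holds in the cytosol and delivers to a CUL3 ubiquitin ligase for degradation. Oxidants and electrophiles modify KEAP1, NRF2 accumulates, and with small MAF proteins it binds antioxidant response elements near genes for glutathione synthesis, thioredoxin reduction, quinone reduction, heme breakdown and iron storage. NRF2 is itself a known substrate of the PERK kinase, and much of its control acts on the protein, which RNA sequencing does not measure. Ferritin is also controlled after transcription, since iron regulatory proteins bind an iron-responsive element in its mRNA and block translation when iron is scarce.

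Promoter windows were examined for the letters TGACNNNGC, the core of the antioxidant response element, because NRF2 is known to bind there. The windows ran from 250 bases before to 50 bases after each RefSeq start (GRCh38.p14), both strands were searched, and GCNNNGTCA is the same core read on the opposite strand. Of the 10 genes, 8 had a window, and HMOX1 and FTH1 did not. The core was found in 3 of the 8, or in 4 of their 11 windows, compared with 13.3% of all 35116 windows. Of 42 other listed genes with a window, 10 (23.8%) held it as well. Counted by window, as for the 13.3%, these were 10 of 68 (14.7%). The sites of GCLM, of both TXNRD1 starts and of the second KEAP1 start are shown from 5′ to 3′ along the gene, with the core in capitals.
GCLM, chr1:93909446-93909474, minus strand: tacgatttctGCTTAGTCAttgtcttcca
TXNRD1 first start, chr12:104215670-104215698, plus strand: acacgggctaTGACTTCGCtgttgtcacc
TXNRD1 second start, chr12:104286920-104286948, plus strand: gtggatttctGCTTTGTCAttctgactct
KEAP1 second start, outer site, chr19:10502807-10502835, minus strand: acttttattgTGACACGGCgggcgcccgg
KEAP1 second start, inner site, chr19:10502784-10502812, minus strand: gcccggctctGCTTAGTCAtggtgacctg
The GCLM site lay 34 to 26 bases before the start, and the inner KEAP1 site 31 to 23 bases before it, with the same GCTTAGTCA letters. A further match spanned the first TXNRD1 start itself. None of the sites shown held or overlapped the AP-1 site TGACTCA, read on either strand. No core was in these windows of NFE2L2, GCLC, NQO1, SRXN1 or FTL, which says nothing about sites farther away. Among the genes with a core, GCLM and TXNRD1 were higher in PERK-KO cells while the intervals of KEAP1 overlapped.

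The libraries were checked before the genes were compared. EIF2AK3 was measured at 5.61 FPKM (5.11 to 6.12) for WT against 3.89 (3.44 to 4.34) for PERK-KO, and its mRNA was thus lower but present. Of 4 genes known to be expressed in HEK293 cells, VIM, KRT18 and NEFL were above 33 FPKM in both samples. IRS4, an insulin receptor substrate abundant in HEK293 cells, was at 0.121 (0.0404 to 0.202) in the library labelled WT and at 27.1 (25.8 to 28.4) in PERK-KO cells, so that the former lacked a marker of the line. Of 4 genes of other cells, ALB and UCP1 were at 0 in both, PTPRC was at 0.108 and 0.180, and ADIPOQ was at 1.68 and 1.42. Genotype, clone and library cannot be told apart. The number of reads was not in the files, but the value of 1 fragment was 1.14 times higher in PERK-KO than in WT cells over 346 genes whose intervals gave whole fragment numbers (within 0.02 of a fragment), which puts the depth of PERK-KO at 87.6% of that of WT.

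Among the 10 genes, HMOX1, GCLM, GCLC and TXNRD1 were higher in PERK-KO than in WT, with intervals that did not overlap. The ferritin genes FTL and FTH1 were lower by a small amount, also with intervals apart. Relative to genes of like transcript length, FTL was higher and FTH1 about level. NFE2L2, KEAP1, NQO1 and SRXN1 had overlapping intervals. Across the 14594 genes whose FPKM reached 1 in either sample, the intervals were apart with the higher value in PERK-KO cells for 26.1%, compared with 4 of the 10 genes, and apart with the lower value for 18.7%, compared with 2 of the 10. A ratio of at least 1.5 was reached upwards by 10.1% of all genes and by 1 of the 10, HMOX1, and downwards by 7.54% of all genes and by 0 of the 10. That count depends on the fold, since 3 of the 10 were higher by at least 25%, against 24.3% of all genes, and 0 were lower, against 18.4%. By 2-fold, 0 of the 10 were higher or lower, against 3.28% and 2.08% of all genes. The median log2 ratio of PERK-KO to WT was 0.025 over the 10 genes and 0.040 over all genes, and the former became -0.015 when the latter was set to 0. With the median of genes of like transcript length subtracted from each gene, it was 0.117 over the 10 genes and -0.00050 over all genes.

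**Figure D1:**
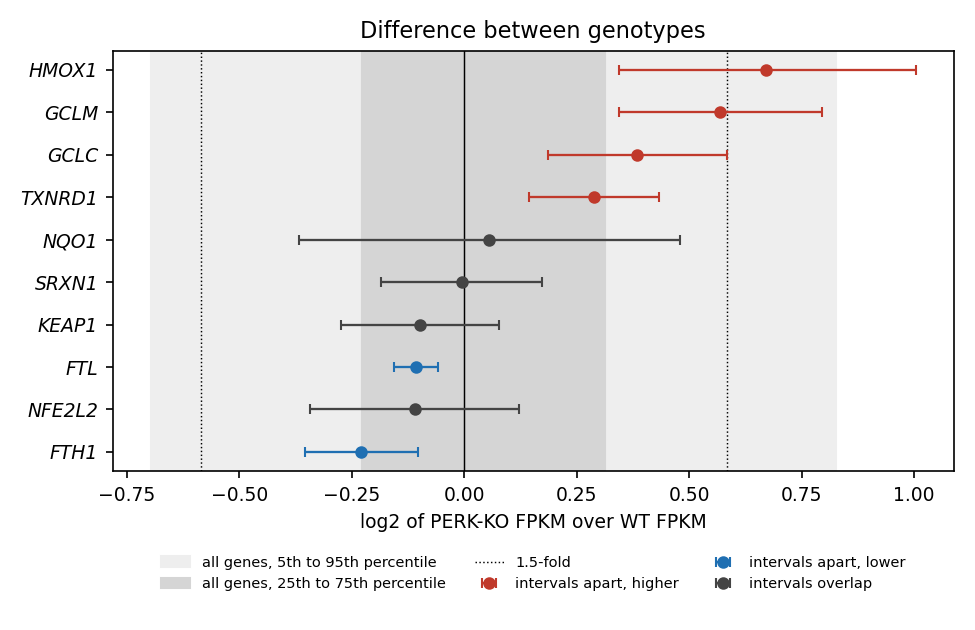
The log2 ratio of PERK-KO FPKM to WT FPKM is plotted for each of the 10 genes (1 sample per genotype). Bars run from the lower limit over the upper limit to the upper limit over the lower limit. Grey bands cover percentiles 5 to 95 (-0.70 to 0.83) and 25 to 75 (-0.23 to 0.31) of all genes whose FPKM reached 1 in either sample. HMOX1, GCLM, GCLC and TXNRD1 lie to the right of 0 (0.67, 0.57, 0.38 and 0.29). FTL and FTH1 lie to the left (-0.11 and -0.23), and with genes of like transcript length subtracted they are at 0.24 and 0.037. The bars of the other genes cross 0.

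The sensor and the transcription factor were nearly level between the genotypes. NFE2L2 (chr2:178095031-178129859 on GRCh37, minus strand, 5 exons) had an FPKM of 16.6 (15.3 to 17.8) in WT and 15.3 (14.1 to 16.6) in PERK-KO cells. KEAP1 (chr19:10596796-10614054, minus strand, 6 exons) had 43.5 (40.9 to 46.2) in WT and 40.7 (38.2 to 43.1) in PERK-KO cells. The PERK-KO value was thus the lower for both, with overlapping intervals and log2 ratios of -0.11 and -0.10. Intervals of the ratio of PERK-KO to WT ran from 0.788 to 1.09 for NFE2L2 and from 0.827 to 1.05 for KEAP1. Larger differences lie outside the limits of these libraries. NFE2L2 mRNA amounted to 0.381 of KEAP1 mRNA in WT and to 0.377 in PERK-KO cells. The value of each gene merged 2 start sites.

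Heme oxygenase 1, encoded by HMOX1, opens the heme ring and releases iron, carbon monoxide and biliverdin. HMOX1 (chr22:35777060-35790207, plus strand, 5 exons) had 9.53 FPKM (8.35 to 10.7) in WT and 15.2 (13.6 to 16.7) in PERK-KO cells. With a 1.59-fold higher value in PERK-KO cells (range from the limits 1.27 to 2.0), it showed the largest ratio of the 10 genes and lay at percentile 92.4 of all genes. Its transcript is 1554 bases long, a length at which the median gene was lower in PERK-KO cells (log2 ratio -0.15 over the 500 genes nearest in length).

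The other listed genes of heme breakdown had lower values in PERK-KO cells. HMOX2, the constitutive heme oxygenase, had 53.04 FPKM (49.9 to 56.2) in WT and 34.8 (32.3 to 37.2) in PERK-KO cells. BLVRA, a biliverdin reductase that makes bilirubin, had 66.4 (61.9 to 70.9) in WT and 34.9 (31.7 to 38.04) in PERK-KO cells. Both were lower in PERK-KO cells with intervals apart, by 1.53-fold and 1.90-fold. BLVRB, the other biliverdin reductase, was at 29.5 and 23.0, also with intervals apart. With genes of like transcript length subtracted, the log2 ratios were -0.63 for BLVRA and -0.46 for HMOX2, the latter no longer past 1.5-fold, while BLVRB was level with such genes (0.0057). HMOX1 mRNA therefore amounted to 0.180 of HMOX2 mRNA in WT cells (range from the limits 0.149 to 0.215) and to 0.436 in PERK-KO cells (0.365 to 0.518).

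Glutamate-cysteine ligase carries out the first step of glutathione synthesis and consists of a catalytic subunit, GCLC, and a modifier subunit, GCLM. GCLC (chr6:53362140-53409927, minus strand, 16 exons) had 15.7 FPKM (14.6 to 16.8) in WT and 20.5 (19.1 to 21.9) in PERK-KO cells. GCLM (chr1:94352590-94375012, minus strand, 7 exons) had 10.2 (9.38 to 11.1) in WT and 15.2 (14.1 to 16.3) in PERK-KO cells. Both subunits were higher in PERK-KO cells with intervals apart, GCLC by 1.31-fold (1.14 to 1.499) and GCLM by 1.48-fold (1.27 to 1.73). GCLM lay just below the 1.5-fold limit. Transcripts of GCLC and GCLM have 3785 and 4883 bases, and genes of like length had median log2 ratios of 0.098 and 0.18, against 0.38 and 0.57 for the subunits themselves. The level of GCLC relative to GCLM was 1.53 in WT cells (1.32 to 1.79) and 1.35 in PERK-KO cells (1.17 to 1.56), ranges that overlapped.

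The widest ratio of all listed genes belonged to SLC7A11, the cystine transporter that supplies cysteine for glutathione and is a target of both NRF2 and ATF4. It had 2.35 FPKM (2.11 to 2.60) in WT and 7.86 (7.31 to 8.40) in PERK-KO cells, a 3.34-fold higher value with intervals apart. Among genes of enzymes that complete, recycle or use glutathione, all those with intervals apart were lower in PERK-KO cells. The glutathione peroxidase genes were among them, GPX1 with 305 in WT and 247 in PERK-KO cells and GPX4 with 362 and 257. With genes of like length subtracted, the log2 ratio was 0.017 for GPX1 and -0.13 for GPX4. GSS, glutathione synthetase, was at 60.3 in WT and 53.05 in PERK-KO cells with intervals apart, and GSR, glutathione reductase, was at 52.9 and 49.97 with overlapping intervals. GSTP1, a glutathione transferase and the most abundant gene of this group, had 1500 (1480 to 1520) in WT and 1196 (1177 to 1215) in PERK-KO cells, lower with intervals apart, but was 0.058 above genes of like length on the log2 scale. MGST1, a membrane-bound glutathione transferase, was at 23.3 and 27.8, and GLRX, glutaredoxin, at 8.40 and 8.90, both with overlapping intervals. Of the 8 listed glutathione genes other than GCLC and GCLM, 1 was higher and 4 were lower with intervals apart, against 26.1% and 18.7% of all genes, and their median log2 ratio was -0.13. The median transcript of these 8 has 928.5 bases, and after subtraction of the median of genes of like length the median was 0.038.

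Thioredoxin reductase 1, encoded by TXNRD1, uses NADPH to reduce thioredoxin, and sulfiredoxin, encoded by SRXN1, repairs overoxidized peroxiredoxins. TXNRD1 (chr12:104609557-104744085, plus strand, 17 exons) had 27.7 FPKM (26.3 to 29.0) in WT and 33.8 (32.1 to 35.5) in PERK-KO cells, a 1.22-fold higher value (1.11 to 1.35) with intervals apart. SRXN1 (chr20:627268-634014, minus strand, 2 exons) had 22.6 (21.3 to 24.0) in WT and 22.6 (21.1 to 24.0) in PERK-KO cells. Its ratio of 0.996 was the nearest to 1 among the 10 genes. Another annotated gene on the same strand covers 90.7% of the exonic bases of SRXN1, and reads of both cannot be separated here.

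TXN, thioredoxin 1, had 729 FPKM (696 to 763) in WT and 489 (465 to 513) in PERK-KO cells, the highest level of its group, with intervals apart. Of the 8 thioredoxin and peroxiredoxin genes other than TXNRD1 and SRXN1, 6 were lower in PERK-KO cells with intervals apart and 0 were higher, against 18.7% and 26.1% of all genes, and 0 were lower by 1.5-fold. PRDX3 and PRDX6 were the 2 with overlapping intervals. Their median log2 ratio was -0.30, and with genes of like length subtracted it was -0.053, with PRDX1, PRDX3 and PRDX6 above 0 at 0.090, 0.094 and 0.11. TXNRD1 mRNA was 0.0379 of TXN mRNA in WT cells (0.0345 to 0.0417) and 0.0691 in PERK-KO cells (0.0625 to 0.0763). The transcripts have 3860 and 737 bases, and genes of like length had median log2 ratios of 0.13 and -0.38. With these subtracted, TXNRD1 was at 0.16 and TXN at -0.19, closer together than their own log2 ratios of 0.29 and -0.58.

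NQO1 reduces quinones by 2 electrons and is among the most used reporters of NRF2. NQO1 (chr16:69743304-69760533, minus strand, 6 exons) was the least abundant of the 10 genes, with 4.51 FPKM (3.87 to 5.16) in WT and 4.69 (3.998 to 5.39) in PERK-KO cells. The intervals overlapped over most of their length, and a ratio from 0.774 to 1.39 was within the deposited limits. That range includes the ratio seen in GCLC. An antisense gene overlaps 22.8% of its exonic bases, and the counting is not stated to use strand.

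Other NRF2-linked enzymes of quinone, aldehyde and NADPH metabolism went both ways. UGDH, which makes UDP-glucuronic acid for conjugation, had 12.6 FPKM (11.6 to 13.6) in WT and 20.98 (19.5 to 22.4) in PERK-KO cells, a 1.66-fold higher value. TALDO1, transaldolase, was the most abundant of the group in WT cells, with 224 (217 to 230) in WT and 168 (162 to 174) in PERK-KO cells. Of the 13 genes listed beside NQO1, 10 reached an FPKM of 1 in either sample, of which 3 were higher and 2 lower with intervals apart, near the 26.1% and 18.7% of all genes. The median log2 ratio of those 10 was -0.056, and 0.012 with genes of like length subtracted. The same step took UGDH from 0.73 to 0.67 and TALDO1 from -0.41 to -0.15. AKR1C3, with near-identical neighbours, was 1.75-fold lower on values of 1.23 and 0.701, and its intervals overlapped.

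Ferritin light and heavy chains assemble into a shell in which the heavy chain oxidizes iron. FTL (chr19:49468566-49470136, plus strand, 4 exons) had 1172 FPKM (1153 to 1191) in WT and 1089 (1069 to 1108) in PERK-KO cells. FTH1 (chr11:61731757-61735132, minus strand, 4 exons) had 1170 (1120 to 1221) in WT and 998 (955 to 1042) in PERK-KO cells. Both were above 99% of all genes in level, and in PERK-KO cells both were lower with intervals apart, FTL by 1.08-fold (1.04 to 1.11) and FTH1 by 1.17-fold (1.07 to 1.28). Their transcripts are the shortest of the 10, at 871 and 1203 bases, and genes of like length had lower medians still, at -0.35 and -0.27 compared with their own log2 ratios of -0.11 and -0.23. With those medians subtracted, FTL was at 0.24, above such genes, and FTH1 at 0.037, about level with them. Values of FTH1 are uncertain in a further respect, since GENCODE lists 25 pseudogene copies of FTH1 and 16 of FTL, and the copy FTH1P3 alone was listed at 157 FPKM in WT and 145 in PERK-KO cells. The interval of FTH1 in WT cells had a half-width of 4.32% of its value, against 1.61% for FTL at the same level. BEST1, on the opposite strand, overlaps 73.2% of the exonic bases of FTH1 in the annotation and was listed at 0.776 and 1.36 FPKM.

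The iron-responsive element through which iron regulatory proteins hold back ferritin translation was located in the FTL mRNA as a C, 5 bases and CAGTG within the 199 bases before the coding sequence. It occurred once, and it is shown with the 6-base loop in capitals.
FTL, chr19:49468591-49468618 on GRCh37, plus strand: tctcttgcttcaaCAGTGTttggacgga
The element acts on translation, so that the FTL level of mRNA above does not report its effect.

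Among the iron-handling genes, 3 that bring iron into the cell were higher in PERK-KO cells. TFRC, the transferrin receptor, had 26.7 FPKM (25.2 to 28.2) in WT and 35.4 (33.5 to 37.3) in PERK-KO cells. SLC11A2, which moves iron out of endosomes, had 13.1 (12.2 to 14.0) in WT and 18.3 (17.2 to 19.5) in PERK-KO cells. SLC39A14, a transporter of zinc and of iron not bound to transferrin, had 23.0 (21.6 to 24.4) in WT and 43.7 (41.4 to 46.0) in PERK-KO cells. These were 1.33-fold, 1.398-fold and 1.90-fold higher, each with intervals apart. IREB2, one of the iron regulatory proteins, was 1.42-fold higher, from 21.03 (20.2 to 21.9) to 29.9 (28.9 to 31.0), while ACO1, the other one, was at 14.2 and 14.5 with overlapping intervals. SLC40A1, the iron exporter ferroportin, was at 3.77 and 3.25, and NCOA4, the receptor for ferritin autophagy, at 80.1 and 74.5, both with overlapping intervals. Of the 10 iron genes beside the ferritins, 6 were higher with intervals apart and 0 lower, against 26.1% and 18.7% of all genes. The list was drawn up with earlier results of these data known, so that this count is descriptive only. PCBP2, a chaperone that hands iron to ferritin, was the most abundant of these 10, with 235 FPKM (229 to 241) in WT and 253 (247 to 260) in PERK-KO cells. The median log2 ratio of the 10 was 0.126, and 0.132 after subtraction of the medians of genes of like length. For single genes the same step lowered TFRC from 0.41 to 0.22, SLC11A2 from 0.48 to 0.36 and IREB2 from 0.51 to 0.27. SLC39A14 went from 0.92 to 0.75 and PCBP2 from 0.11 to 0.045. TFRC, SLC11A2, IREB2, ACO1, SLC40A1 and NCOA4 were named here after their values had been seen.

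**Figure D2:**
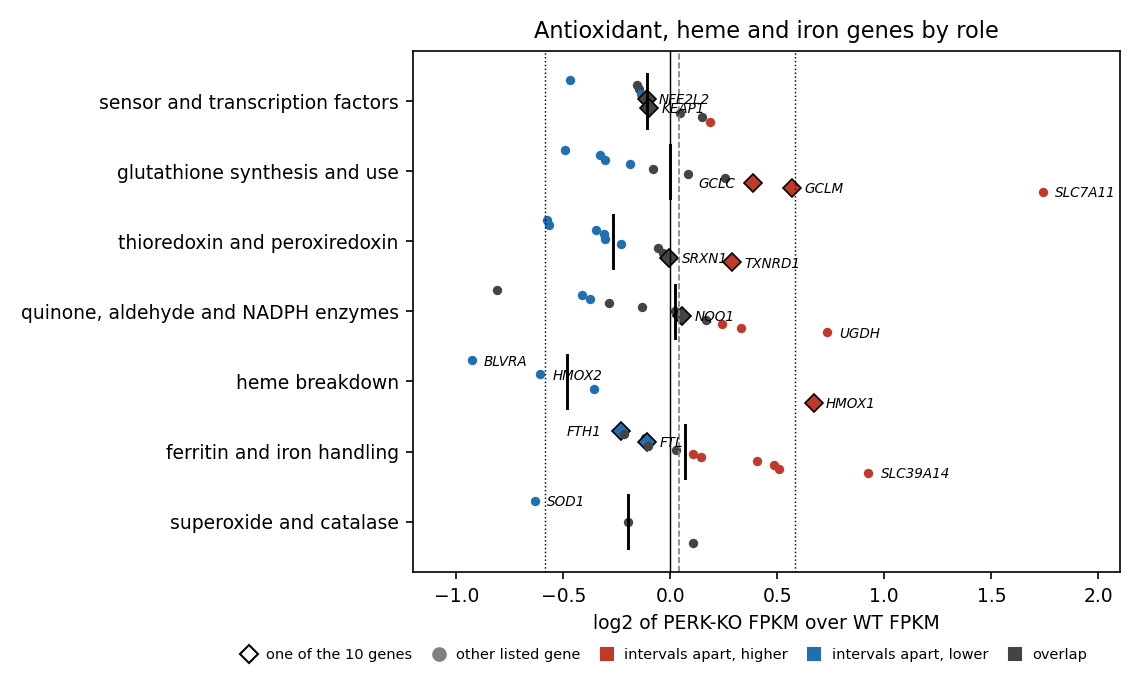
The log2 ratio of PERK-KO FPKM to WT FPKM is plotted for the listed genes by role, with diamonds for the 10 genes, dots for the others, short vertical lines for list medians, a dashed line for the median of all genes and dotted lines at 1.5-fold. HMOX1 (0.67) stands apart from BLVRA and HMOX2, TXNRD1 (0.29) lies to the right of the rest of its list, and SLC7A11 is farthest to the right.

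Beyond the 10 genes, the 53 other listed genes included 50 whose FPKM reached 1 in either sample. Of these 50, 11 were higher and 18 lower in PERK-KO cells with intervals apart, against 26.1% and 18.7% of all genes. A ratio of at least 1.5 was found upwards in 3 (SLC7A11, SLC39A14 and UGDH), against 10.1% of all genes, and downwards in 4 (BLVRA, HMOX2, SOD1 and AKR1C3), against 7.54%. With the median of genes of like length subtracted, 4 were higher by that fold and BLVRA alone was lower. SOD1, the cytosolic superoxide dismutase, had 350 FPKM (341 to 360) in WT and 226 (218 to 234) in PERK-KO cells, whereas SOD2 (53.2 and 46.3) and CAT (20.7 and 22.3) had overlapping intervals. The log2 ratio of SOD1 was -0.63, and -0.31 with genes of like length subtracted. Among the 8 regulators other than NFE2L2 and KEAP1, RBX1, the ring subunit of the CUL3 ligase, was the most abundant in WT cells and was lower with intervals apart, from 84.4 (79.6 to 89.3) to 61.1 (56.6 to 65.5). For RBX1 the log2 ratio was -0.47, and -0.20 with genes of like length subtracted. SQSTM1, the autophagy receptor p62 that binds KEAP1, was also lower with intervals apart, from 82.0 (78.4 to 85.7) to 74.5 (71.02 to 78.0). The small MAF genes MAFF, MAFG and MAFK, which encode the partners of NRF2, and BACH1, its competitor at the same sites, all had overlapping intervals. CUL3 itself was at 9.97 and 10.3. NFE2L1, a relative of NRF2, was higher by 1.14-fold with intervals apart, but level with genes of like length (0.0041 on the log2 scale).

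Over all genes, the ratio rose with transcript length, and the listed genes followed it in part. Of the 12 listed genes with a transcript of at most 1000 bases, 10 had the lower value in PERK-KO cells. Their median log2 ratio was -0.34, compared with -0.38 for all 875 genes of that length. In the range over 3000 and up to 5000 bases, 4 of 13 were lower, with a median of 0.19 against 0.12 for all 3502 genes. Between these ranges the listed medians were -0.29 against -0.17 for all genes over 1000 and up to 2000 bases, and -0.052 against -0.021 up to 3000 bases. For the 9 listed genes over 5000 bases the median was 0.043, whereas that of all genes was highest there at 0.25. Subtraction of the median of genes of like length left log2 ratios of 0.82 for HMOX1, 0.38 for GCLM, 0.29 for GCLC and 0.16 for TXNRD1, all above 0 as before. For NFE2L2, KEAP1, SRXN1 and NQO1 it left -0.10, -0.096, 0.012 and 0.078. The cause of the relation with length was not tested.

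**Figure D3:**
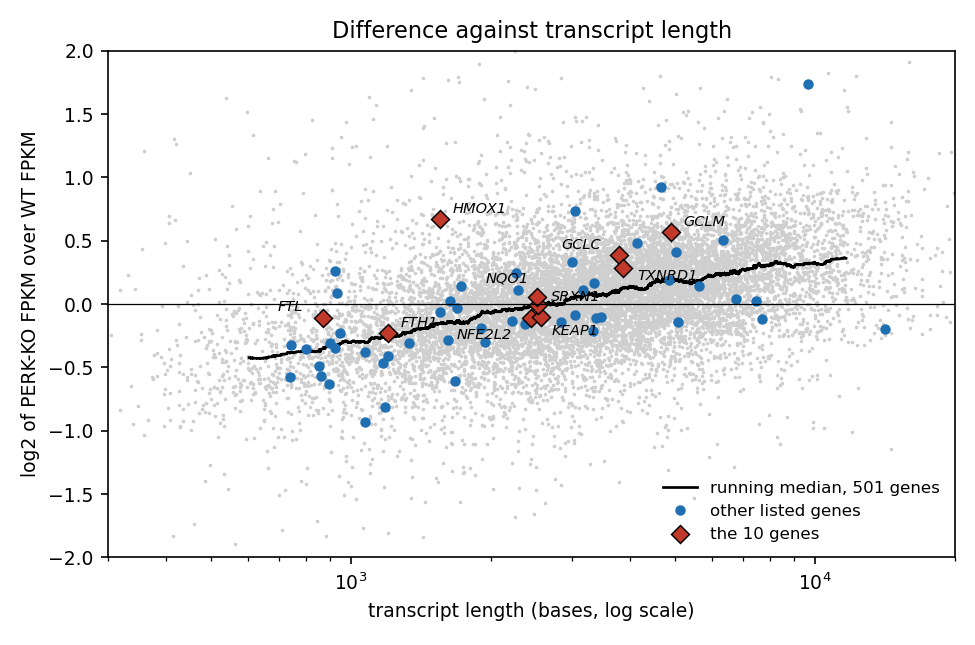
The log2 ratio of PERK-KO FPKM to WT FPKM is plotted against transcript length on a log axis for 12439 genes (grey, of which 87 lie outside the axes), with the running median of 501 genes as a line, the 10 genes as diamonds and the other listed genes as dots. Of the 10 genes, HMOX1 lies farthest above the line (0.82, against 1.42 for SLC7A11 among the dots), while FTL, although lower in PERK-KO cells, lies above it by 0.24 and FTH1 by 0.037.

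Within each sample, the 10 genes spanned a wide range of levels, 260-fold in WT and 232-fold in PERK-KO cells from NQO1 to FTL. In WT cells the order was FTL, FTH1, KEAP1, TXNRD1, SRXN1, NFE2L2, GCLC, GCLM, HMOX1 and NQO1. The pairs FTL and FTH1, NFE2L2 and GCLC, and GCLM and HMOX1 were neighbours with overlapping intervals, and the other neighbours were apart. In PERK-KO cells GCLC had moved above NFE2L2 with intervals apart, and it overlapped with SRXN1. NFE2L2, GCLM and HMOX1, at 15.3, 15.2 and 15.2 FPKM, could not be placed in order. FTL and FTH1 were level in WT cells, with FTH1 at 0.998 of FTL (0.940 to 1.06). In PERK-KO cells they were apart, with FTH1 at 0.917 of FTL (0.862 to 0.975). The ranges of this ratio overlapped between the genotypes.

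**Figure D4:**
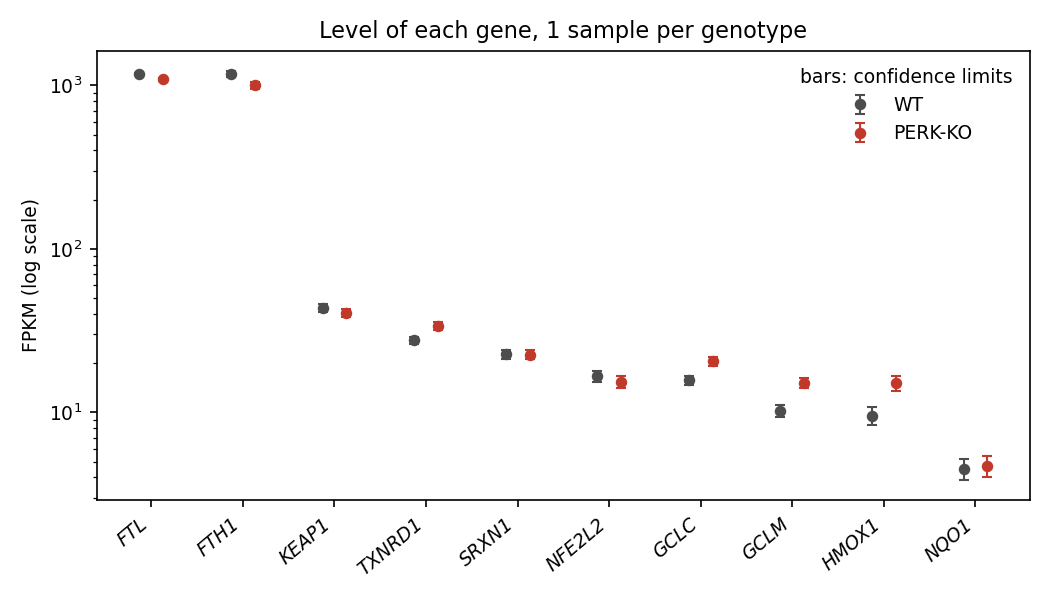
FPKM on a log axis is plotted for each of the 10 genes in WT and PERK-KO cells (1 sample each), with bars for the deposited confidence limits. FTL and FTH1 stand near 1000 FPKM or above in both genotypes (lowest value 998), NQO1 stays below 5, and GCLM and HMOX1 move from about the level of 10 (10.2 and 9.53) to that of NFE2L2 in PERK-KO cells.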

How the data were processed

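The authors purified polyadenylated RNA from 1 culture of each genotype, mapped the reads to GRCh37/hg19 with TopHat2 2.0.13 and computed FPKM with Cufflinks 2.2.1 and Cuffdiff; per the file headers, the deposited tables hold FPKM per gene with a lower and an upper confidence limit. The gene annotation used is not given in the sources used here. The files hold no counts, so no count model was run.

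From these values the ratio of PERK-KO to WT was taken without a pseudocount. Ratio ranges divide opposite limits. Background shares cover the 14594 rows whose FPKM reached 1 in either sample. The study's fold limit was rounded to 1.5. Transcript lengths came from canonical transcripts of GENCODE 44 on GRCh37, matched by symbol and position (85.3% of the 14594 rows and all 63 listed genes). A gene's like-length median is that of the 500 genes nearest in length. Gene starts were counted from 1. Promoter sequences are from RefSeq (GRCh38.p14). Calculations were tested on simulated data. Python 3.11.15, numpy 2.4.6, pandas 2.3.3 and matplotlib 3.10.9 were used.

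The members and lists were chosen with earlier results of these data known. By rule, all 10 genes were named, with EIF2AK3, the most abundant gene of each list, and other listed genes with intervals apart and a ratio of at least 1.5. Genes outside it (TFRC, SLC11A2, IREB2, ACO1, SLC40A1, NCOA4, GSS, GSR, GPX1, GPX4, MGST1, GLRX, PRDX1, PRDX3, PRDX6, SQSTM1, BLVRB, AKR1C3, SOD2, CAT, CUL3, BACH1, NFE2L1 and the MAF genes) were added for their roles after their values had been seen.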

Additional observations from a re-analysis of the deposited data

How the results depend on the processing

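No paired analysis was possible because each genotype has 1 sample, and no replicate could be left out for the same reason. The alternatives were an added 0.1 or 1 on both values as pseudocount, rescaling to the median or to the 75th percentile, subtraction of the median of genes of like transcript length, summing rows of the same gene name, other folds and other filters. The log2 ratios of HMOX1, GCLM, GCLC and TXNRD1 kept their direction under each of the first 6. Those of FTL and FTH1 turned to 0.243 and 0.0365 with the like-length median subtracted, and with the same step 1 instead of 4 of the other listed genes was lower by 1.5-fold, against 6 under either rescaling. Of the 10 genes, 3 were higher by at least 25% and 0 by 2-fold. Over all genes, 1481 were higher and 1100 lower. A pseudocount of 1 gave 944 higher. At a fold limit of 25% there were 3543 higher and 2691 lower, and at 2-fold 479 and 304. With no filter there were 3298 and 2555, and where FPKM had to reach 5 in either sample, 872 and 702. The limits of each library set what can be seen, and for NQO1 ratios from 0.774 to 1.39 lay within them.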
